A study of Mus musculus with 77 samples.

Results

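Mouse pancreatic ductal organoids that expressed 6S-A Ngn3 were compared with organoids that expressed GFP only, 2 days after induction of the transgene. The libraries were chosen by their labels, 18 of 6S-A Ngn3 and 18 of GFP only, together 36 of the 77 libraries of the series. The series also holds WT Ngn3 libraries of the same day (18) and libraries of a later day, and only the former are used here. They show where 6S-A Ngn3 differed from WT Ngn3, and they enter the estimate of the spread that all comparisons share. Organoids are three-dimensional cultures, here grown from ducts of adult C57BL/6 mice and sampled at passage 2. All cells were infected with a lentiviral Tet-on system, in which a separate transactivator vector switches on the transgene. The GFP only vector carried the reporter alone. In the Ngn3 vectors GFP was joined through a 2A peptide to HA-tagged Ngn3, either WT or 6S-A, in which the serines of 6 serine-proline sites are replaced by alanine so that they cannot be phosphorylated. GFP+ cells were sorted in pools of 50 and sequenced as Smart-seq2 libraries, a method that amplifies whole transcripts without molecular identifiers. Each group held 3 biological replicates of 6 libraries (technical repeats). Technical repeats 2 and 3 of biological replicates 2 and 3 were close to each other in every group. These 6 pairs differed by a chi-square of 1.61 to 2.44 per gene (about 1 would be sampling noise alone), against 5.41 to 42.3 in the other 129 pairs of repeats, so each may be 1 pool read in more than 1 library, and the 18 libraries of a group may then hold 16 separate pools. The libraries of a replicate were summed, so that every comparison is 3 sums against 3, and without technical repeat 3 the count of called genes given below was 4289.

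Ngn3, encoded by Neurog3, is the basic helix-loop-helix transcription factor that commits pancreatic progenitors to the endocrine lineage. It switches on a cascade of further factors, among them Neurod1, Insm1 and Rfx6, and progenitors that express it leave the cell cycle and raise Notch ligands that restrain their neighbours. Adult ductal cells normally make little or none of it, and forced expression in ductal cells is used to ask how far they can move towards an islet cell fate. The serine-proline sites are substrates of cyclin-dependent kinases, and the alanine mutant was made to remove this brake.

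Gene reads of a library numbered 1707561 to 5424097 with 6S-A Ngn3 and 1822044 to 5632412 with GFP only, and summed over a replicate GFP only had more gene reads in all 3 replicates than any 6S-A Ngn3 replicate (exact permutation test, two-sided, p = 0.1, the smallest possible with 3 against 3). Gene reads per spike-in read, a measure of RNA per library, were 850 ± 161 with 6S-A Ngn3 and 1002 ± 348 with GFP only (mean ± SD, n = 3, exact permutation test, two-sided, p = 0.6). A pool mixes 50 cells, so more or fewer cells of a type and more or less RNA per cell cannot be told apart. The labels do not say that the replicates came from separate animals, and p-values measure the spread between these samples. Forced expression from a virus sets the level of Ngn3 here, and because its coding sequence matches the endogenous gene, reads of the transgene and of endogenous Neurog3 are counted together. The summed level of 8 ductal markers lay between 17850 and 19360 CPM (counts scaled to the library's gene reads) with GFP only and between 9288 and 9961 CPM with 6S-A Ngn3, where 5 of the 8 fell. The 12 acinar markers summed to at most 7.76 CPM in any replicate, the 8 fibroblast markers to at most 4.59 CPM, the 8 immune markers to at most 13.6 CPM and the 6 endothelial markers to at most 12.0 CPM. Of the last, 1 rose and 1 fell, and 1 immune marker fell. Of 12 gastric and intestinal markers, 2 rose and 1 fell, with sums of 222 to 302 CPM against 34.1 to 49.2 CPM, and their part in the results below was not tested.

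6S-A Ngn3 changed 4305 of the 23844 genes tested (18.1%) at an adjusted p under 0.05 in edgeR's quasi-likelihood test, 2249 higher (9.43%) and 2056 lower (8.62%). The median log2 fold change of all genes tested was 0.02. Among the 10035 tested genes with a mean of at least 10 CPM, 13.05% were higher and 14.65% lower. With the replicate number fitted as a term, called the replicate block below, 12.7% of all genes tested were higher and 12.1% lower. Most listed endocrine factors, granule proteins and genes of exocytosis and neurons rose, as did 3 of 5 Notch ligands, 6 of 12 antigen presentation genes and 7 of 26 genes of the unfolded protein response. Most mitosis, DNA replication, cholesterol synthesis and inflammatory genes of the lists fell, as did 6 of 16 heat shock genes and 13 of 30 genes of oxidative stress and glutathione. Lists of genes for these processes are described below by how many of their tested members passed the test in each direction and by the list's median log2 fold change, to be read against the shares and the median of all genes. They were chosen with earlier results of these data known, so their direction is a description.

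**Figure D1:**
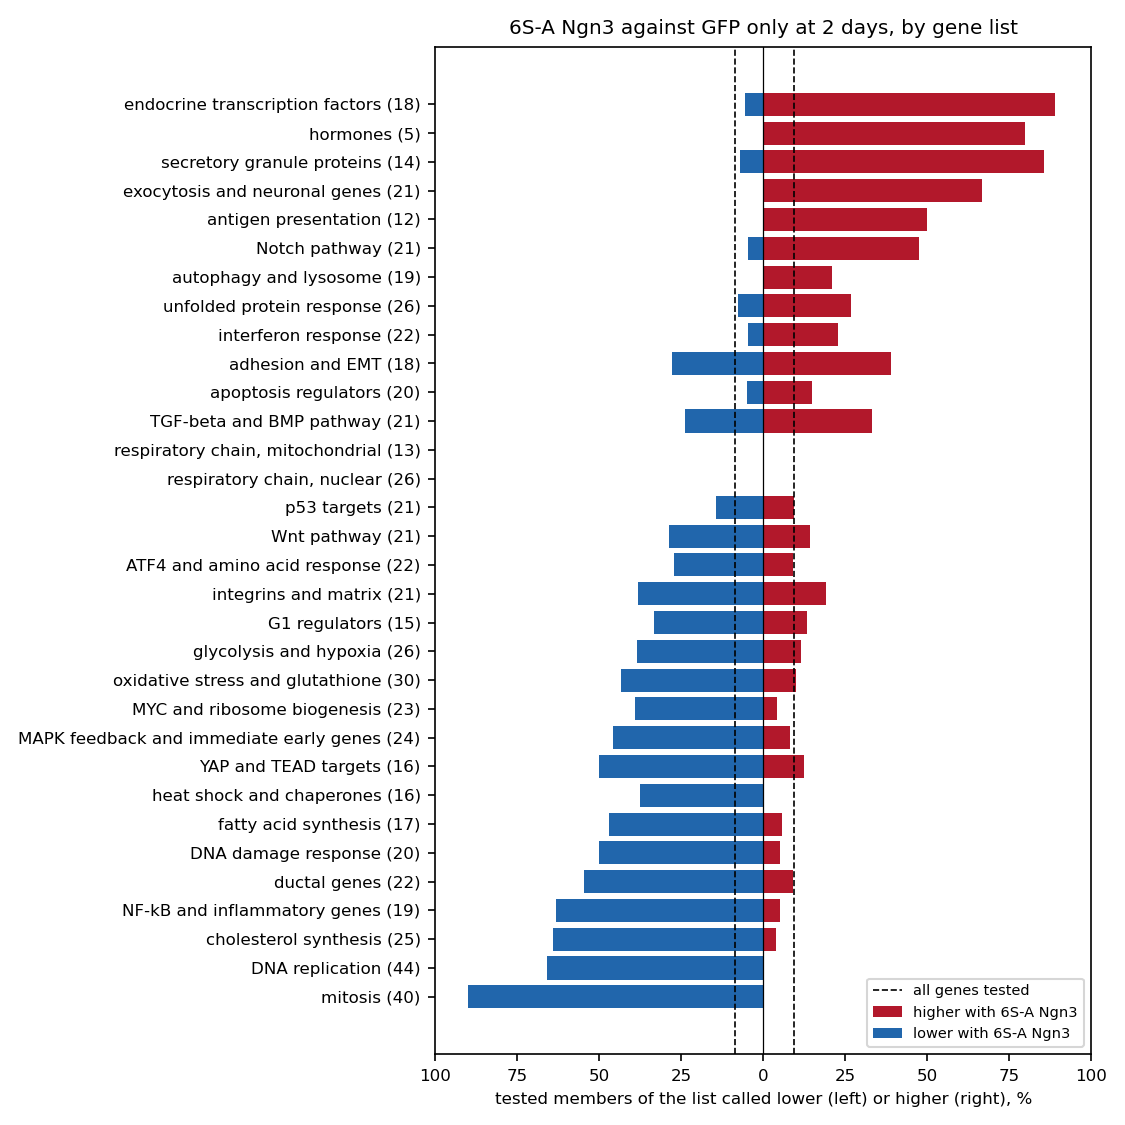
Share of the tested members of each of 32 gene lists called higher (red, right) or lower (blue, left) with 6S-A Ngn3 against GFP only at 2 days, in percent, with the number of tested members in brackets; dashed lines mark the shares over all genes tested, 9.43% higher and 8.62% lower. Endocrine transcription factors, hormones and secretory granule proteins stand at the top, mitosis with 36 of 40 members lower at the bottom, and both respiratory chain lists have no call.

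Neurog3 itself was at 212, 123 and 107 CPM in the 3 replicates of 6S-A Ngn3 and at 0.077, 0.0406 and 0.05 CPM with GFP only. Every one of the 18 libraries with 6S-A Ngn3 held it, between 44.2 and 271 CPM. Endogenous members of the cascade that follows it rose from near nothing. Of 18 tested endocrine transcription factors, 16 were higher and 1 was lower, with a median log2 fold change of 8.46 (7.75 with genes that had no read with GFP only at their lower bound). St18, a zinc finger factor of the Myt1 family, went from at most 0.0812 CPM to 44.6, 27.4 and 42.3 CPM, and Myt1 itself from at most 0.0406 CPM to 36.1, 26.3 and 52.6 CPM. Cbfa2t3, a transcriptional corepressor, rose from 0.693, 1.10 and 1.15 CPM to 133, 132 and 234 CPM (log2 fold change 7.42 ± 0.46 SE, adjusted p = 2.9e-06).

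Factors that mark later steps or particular islet cell types rose as well. Nkx2-2, needed for several islet cell types, reached 26.6, 21.9 and 51.7 CPM against at most 0.446 CPM. Isl1, a LIM homeodomain factor of maturing endocrine cells, reached 43.0, 32.6 and 51.1 CPM. Pax4, a factor of the beta lineage, reached 5.58, 4.77 and 18.6 CPM. The beta cell factor Nkx6-1 went the other way, at 0.147, 0.384 and 0.617 CPM against 2.23, 1.46 and 1.35 CPM, without overlap (log2 fold change -2.12 ± 0.60, adjusted p = 0.023). Its call was lost in 3 of the 6 fits that left out 1 replicate (6S-A Ngn3 replicate 1 or 2, or GFP only replicate 1), with an adjusted p of at most 0.087. Pdx1, required for pancreas formation and beta cell function, was at 7.83, 5.87 and 8.11 CPM against 8.86, 13.1 and 12.96 CPM and did not pass the test (adjusted p = 0.065, although DESeq2 and the replicate block, which fits the replicate number as a term, called it lower).

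Hormone genes were uneven. Of 10, only 5 could be tested and 4 were higher, while insulin (Ins1, Ins2) had no read in either group. Sst, which encodes somatostatin, was at 178, 459 and 91.3 CPM in the replicates against 0.154, 0.244 and 0.15 CPM, and ghrelin (Ghrl) at 38.8, 168 and 606 CPM against at most 0.732 CPM. Among the 18 libraries with 6S-A Ngn3, Sst ranged from 0.248 to 3100 CPM with a median of 23.6, and Ghrl from 0 to 2079 CPM with a median of 59.95. Hes6 lay between 594 and 1000 CPM in every 6S-A library and between 42.2 and 101.4 CPM in every GFP only library. The call of Sst was lost when any 1 of the 3 GFP only replicates was left out (adjusted p of at most 0.069), and that of the satiety peptide Cck likewise.

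**Figure D2:**
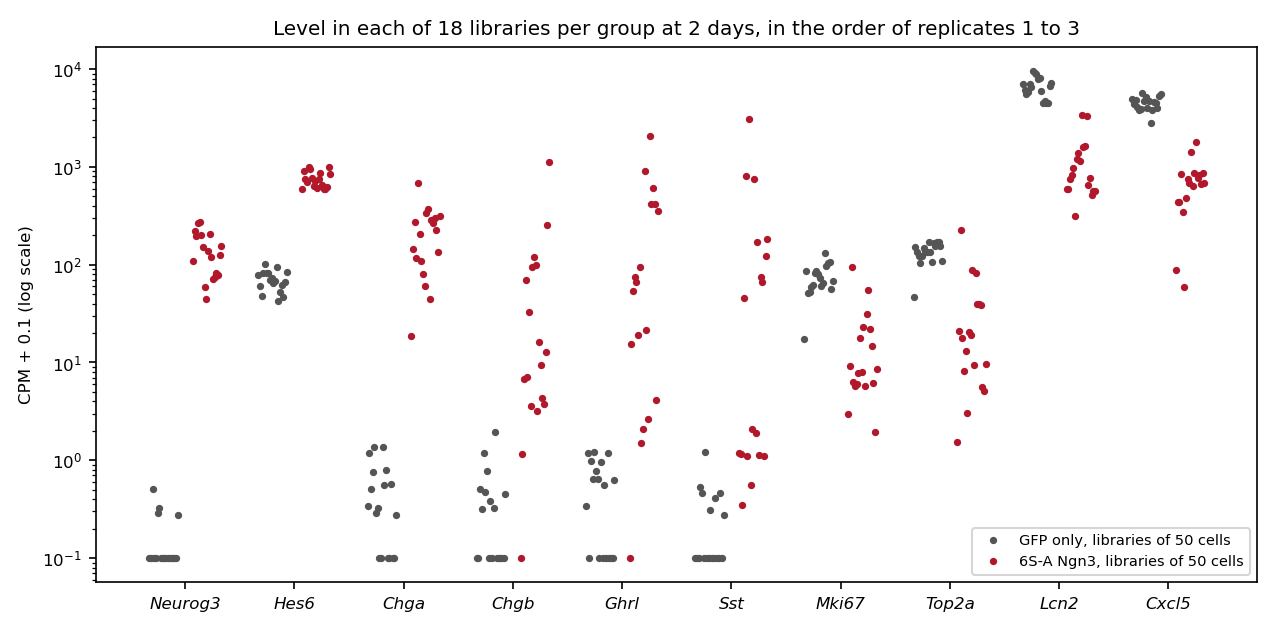
CPM plus 0.1 on a log axis in each of the 18 libraries of 50 sorted cells per group (grey, GFP only; red, 6S-A Ngn3), for 10 genes, libraries ordered by replicate. Neurog3 and Hes6 stand above every GFP only library in all 6S-A Ngn3 libraries, Sst, Ghrl and Chgb spread from about the GFP only level to over 1000 CPM, and Mki67 and Top2a are low in most 6S-A libraries but not in all.

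Most listed genes of the machinery for peptide hormones rose. Of 14 granule proteins 12 were higher, with a median log2 fold change of 6.59. The granule core protein Chga reached 276, 175 and 243 CPM against 0.693, 0.487 and 0.1 CPM, and the prohormone convertases Pcsk1 and Pcsk2 reached up to 40.5 and 33.0 CPM from at most 0.15 and 0.077 CPM. Cpe, which trims the cut peptides, was already expressed in ductal cells and rose from 120, 109 and 113 CPM to 643, 563 and 850 CPM, 6.02-fold. Pam, the enzyme that amidates peptides, was the 1 member that fell, from 242, 207 and 235 CPM to 153, 141 and 176 CPM. Chgb reached 348 CPM in replicate 3 but 17.1 and 49.2 CPM in the other 2, and its call was lost without 6S-A Ngn3 replicate 3 (adjusted p = 0.062), without any 1 of the GFP only replicates (at most 0.12) and with the replicate block (0.053). Of 21 genes of exocytosis and neurons 14 were higher and 0 lower in edgeR (0 lower at an unadjusted p under 0.05 and in DESeq2). Tubb3, a neuronal tubulin, rose from 1.77, 0.284 and 0.45 CPM to 131, 130 and 155 CPM, and the migration protein Dcx, without a read in GFP only, was at least 189-fold higher against a floor of 3 reads over the group. With 1 library per replicate, technical repeat 1, in place of 6, 7 members were called higher.

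Neurog3 and related factors bind E-boxes, and the stretch just before the start of genes that rose was searched for 2 of them, CAGATG and CAGCTG, on either strand. In RefSeq promoters of GRCm38.p6 (250 bases before to 50 after the start), CAGCTG was present in 24.5% of 1572 higher genes, 18.8% of 13410 tested genes and 18.3% of all 27025 genes with a promoter, and CAGATG in 17.3%, 14.96% and 19.2%. CAGCTG was present in 18.75% of 1499 lower genes and in 3 of the 13 endocrine transcription factors with a promoter (23.1%). These are counts of letters, not of bound sites. The 180 bases before the start are shown for 3 of the genes described above or below, which went from about 1 CPM or less to at least 11.9 CPM, with E-boxes in capitals. Chga lies at chr12:102554761-102554940 on the plus strand, the Cbfa2t3 start shown (1 of 2) at chr8:122699110-122699289 on the minus strand and Atoh8 at chr6:72235578-72235757 on the minus strand.
Chga: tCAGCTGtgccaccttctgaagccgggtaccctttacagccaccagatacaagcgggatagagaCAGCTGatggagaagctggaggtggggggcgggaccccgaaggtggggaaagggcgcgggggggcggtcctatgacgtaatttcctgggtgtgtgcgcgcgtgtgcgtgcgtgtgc
Cbfa2t3: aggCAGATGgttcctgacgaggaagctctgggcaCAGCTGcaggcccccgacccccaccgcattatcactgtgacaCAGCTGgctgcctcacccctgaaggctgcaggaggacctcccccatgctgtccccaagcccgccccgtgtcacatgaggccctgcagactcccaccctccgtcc
Atoh8: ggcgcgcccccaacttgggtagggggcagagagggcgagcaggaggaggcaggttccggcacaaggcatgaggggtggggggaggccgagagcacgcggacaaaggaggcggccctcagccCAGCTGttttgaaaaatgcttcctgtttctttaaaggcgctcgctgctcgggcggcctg
The CAGCTG of Chga start 179 and 116 bases before the gene's start, those of Cbfa2t3 146 and 104 bases before it and the one of Atoh8 59 bases before it. Atoh8, a helix-loop-helix factor, had 1 read in GFP only and 13.4, 12.1 and 11.9 CPM with 6S-A Ngn3, a ratio of 880 with a 95% exact counting interval of 158 to 34810.

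Notch signalling, in which a ligand on one cell activates Notch receptors on the next, changed in some of its ligands, modifying enzymes and targets. Of 21 tested genes 10 were higher and 1 was lower. Of 5 ligands Dll1, Dll4 and Jag2 rose, Jag1 fell and Dll3, with 26 reads against 2, did not pass (adjusted p = 0.081, although it was called without the filter on low counts, 0.036). The ligand Dll1 rose from 14.1, 30.9 and 29.3 CPM to 76.5, 56.4 and 70.1 CPM, and Dll4 from 0.847, 0.649 and 0.4 CPM to 24.4, 10.4 and 34.9 CPM. Jag1, a ligand already expressed with GFP only, fell from 195, 170 and 219 CPM to 91.1, 90.6 and 79.3 CPM (log2 fold change -1.16 ± 0.12, adjusted p = 1.0e-05). The fringe enzymes Mfng and Lfng, which modify Notch receptors, rose, Mfng from at most 0.487 CPM to 4.01, 9.44 and 7.11 CPM. Hes6, a helix-loop-helix factor that opposes Hes1, rose 10.4-fold to 836, 719 and 757 CPM, and the target Heyl rose from at most 0.116 CPM to 27.0, 12.6 and 7.64 CPM. The classical target Hes1 stood at 385, 397 and 575 CPM against 394, 422 and 585 CPM, with overlap of the groups, and did not pass (log2 fold change -0.05 ± 0.18, adjusted p = 0.92). The receptor Notch1 rose from 31.9, 31.7 and 34.2 CPM to 96.1, 65.7 and 61.2 CPM. Notch2 also passed the test, at 143, 137 and 139 CPM against 93.9, 100 and 127 CPM, but lost its call in 5 of the 6 fits that left out 1 replicate (adjusted p of at most 0.19), and its log2 fold change was -0.05 with technical repeat 1 alone.

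Genes of the dividing cell fell together. Of 40 mitosis genes 36 were lower and 0 higher in edgeR (0 higher at an unadjusted p under 0.05 and in DESeq2), with a median log2 fold change of -1.63. Mki67, the usual marker of cycling cells, was at 23.6, 16.5 and 16.6 CPM against 57.3, 75.4 and 89.5 CPM. Cdk1, the kinase that starts mitosis, was at 30.6, 41.5 and 19.0 CPM against 94.0, 104 and 81.4 CPM. Kif23, a motor needed to complete cell division, fell 4.43-fold, from 68.0, 71.4 and 87.8 CPM to 21.9, 17.6 and 11.7 CPM. In none of these 3 did the groups overlap, which was so for 32.9% of all genes tested. The libraries were uneven, with Mki67 between 1.84 and 95.5 CPM (median 8.19) in the 18 libraries with 6S-A Ngn3 and between 17.3 and 132 CPM (median 70.7) in those with GFP only. The other 4 of the 40 did not pass, among them Ube2c (72.0 to 74.6 CPM against 69.2 to 88.9 CPM) and Pttg1. With technical repeat 1 alone, 21 members were called lower.

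DNA replication genes fell in part. Of 44 tested members 29 were lower and 0 higher in edgeR (1 higher at an unadjusted p under 0.05, in DESeq2 and with the replicate block), with a median of -1.08. With technical repeat 1 alone, 24 members were called lower. Rrm2, the regulated subunit of the enzyme that makes deoxynucleotides, went from 38.5, 64.3 and 47.5 CPM to 9.34, 12.9 and 7.97 CPM. Uhrf1, which copies DNA methylation to new strands, went from 25.5, 45.4 and 32.0 CPM to 6.41, 9.27 and 2.89 CPM. Among the subunits of the replicative helicase Mcm3 fell from 67.2, 113 and 90.3 CPM to 37.7, 40.4 and 28.1 CPM, while Mcm7 was at 77.5, 84.0 and 74.4 CPM against 90.6, 93.4 and 79.3 CPM and did not pass. The repressor E2f8 fell (log2 fold change -2.44 ± 0.43).

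Among 15 regulators of G1, the phase before replication, 2 were higher and 5 lower. Cdkn1a, which encodes the inhibitor p21, rose from 606, 531 and 729 CPM to 909, 990 and 1136 CPM without overlap of the replicates (1.63-fold, log2 fold change 0.70 ± 0.17, adjusted p = 0.0086). Single libraries did overlap, at 708 to 1359 CPM with 6S-A Ngn3 and 430 to 841 CPM with GFP only. Rb1, the retinoblastoma gene, rose from 20.2, 13.9 and 15.1 CPM to 27.3, 26.0 and 23.8 CPM, with its call lost in 4 of the 6 fits that left out 1 replicate (adjusted p of at most 0.11). The inhibitors Cdkn1b (p27) and Cdkn2c fell, Cdkn1b only from 28.5, 41.0 and 49.7 CPM to 19.2, 23.4 and 26.8 CPM and likewise with its call lost in 4 of these fits (at most 0.13). Cdkn2c lost its call without GFP only replicate 2 (adjusted p = 0.074). The kinase Cdk6 fell from 658, 548 and 614 CPM to 378, 399 and 412 CPM, its relative Cdk4 stood at 605, 630 and 621 CPM against 538, 582 and 451 CPM, and the cyclin Ccnd1 at 607, 558 and 412 CPM against 696, 521 and 456 CPM. Neither of the last 2 passed the test.

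**Figure D3:**
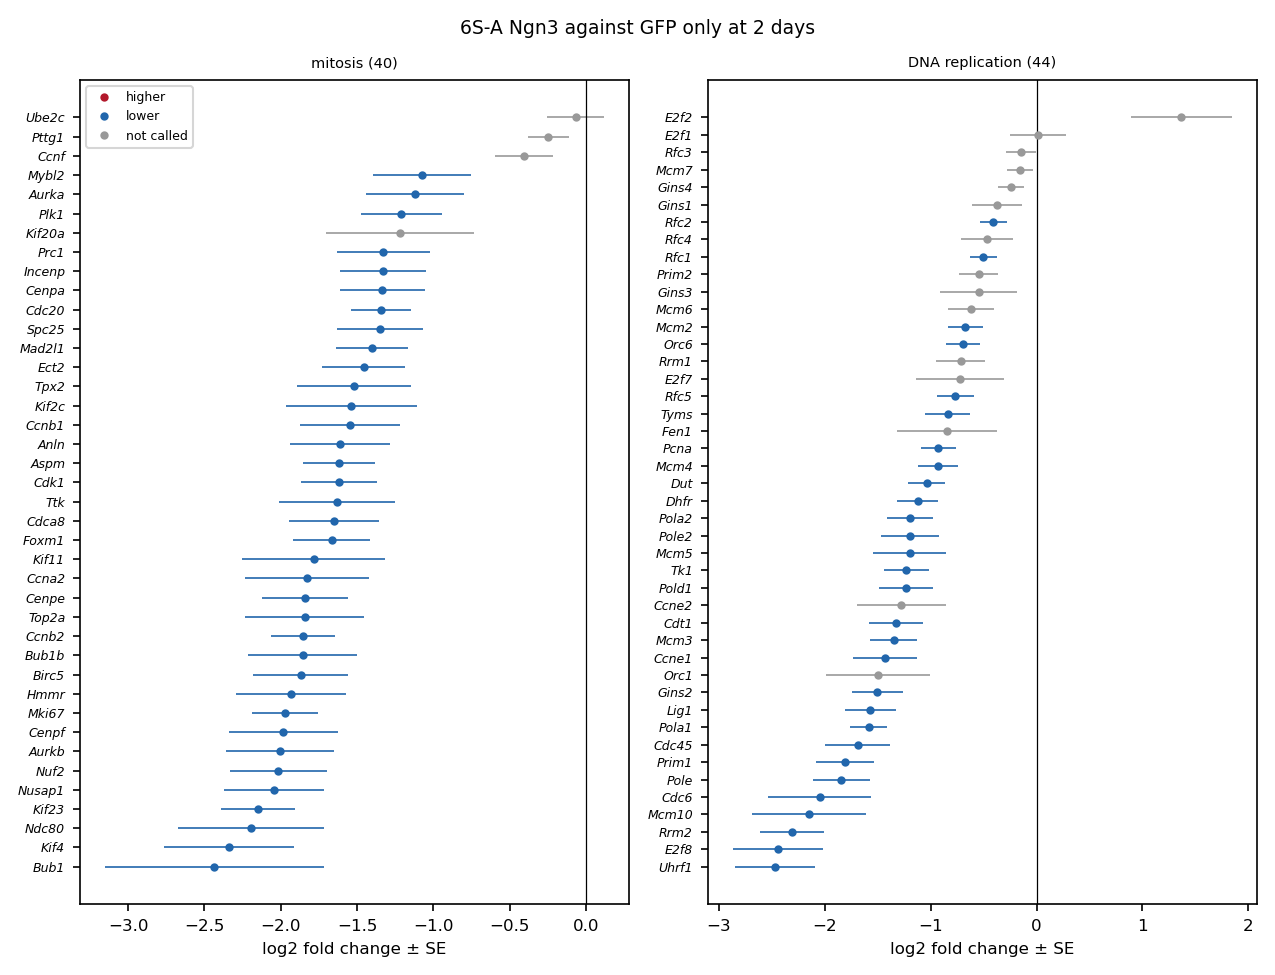
Log2 fold change of 6S-A Ngn3 against GFP only at 2 days with its standard error, for every tested member of 2 lists (blue, called lower; red, called higher; grey, not called). All 40 mitosis estimates lie below 0 and 36 are called, and 29 of 44 replication genes are called lower.

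Many mitosis genes share short promoter motifs, the cell cycle homology region and the CCAAT box that binds NF-Y, and the RefSeq promoters of the list were searched for TTTGAA and CCAAT on either strand. TTTGAA was present in 25 of the 34 mitosis genes with a promoter in the table (73.5%), 6 of 35 replication genes (17.1%), 15.1% of tested genes and 20.2% of all genes with a promoter. CCAAT was present in 73.5% of the mitosis genes, 60% of the replication genes and 41.7% of tested genes. The 180 bases before the start are shown for 3 mitosis genes that fell, on GRCm38.p6 and all on the minus strand, with both motifs in capitals: Cdk1 at chr10:69352913-69353092, Cdc20 at chr4:118437344-118437523 and Top2a at chr11:99024190-99024369.
Cdk1: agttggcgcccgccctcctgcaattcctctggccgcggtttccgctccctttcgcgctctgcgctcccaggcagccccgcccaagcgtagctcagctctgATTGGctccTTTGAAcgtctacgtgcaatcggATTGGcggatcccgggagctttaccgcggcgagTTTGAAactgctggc
Cdc20: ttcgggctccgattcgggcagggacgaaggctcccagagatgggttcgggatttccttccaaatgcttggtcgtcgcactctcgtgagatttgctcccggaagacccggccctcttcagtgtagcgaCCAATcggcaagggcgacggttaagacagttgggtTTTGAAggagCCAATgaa
Top2a: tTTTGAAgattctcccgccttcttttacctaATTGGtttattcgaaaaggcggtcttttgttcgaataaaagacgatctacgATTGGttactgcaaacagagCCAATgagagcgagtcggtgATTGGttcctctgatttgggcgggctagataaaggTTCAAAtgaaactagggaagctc
The TTTGAA nearest to the start lies 15 bases before it in Cdk1, 18 in Cdc20 and 23 in Top2a, in the last on the other strand, and each gene has at least 1 CCAAT box further upstream. Cdc20, an activator of the ligase that ends mitosis, fell from 41.4, 46.8 and 41.2 CPM to 18.2, 20.03 and 12.9 CPM (log2 fold change -1.34), and Top2a, the topoisomerase of dividing cells, from 116, 142 and 152 CPM to 53.5, 41.8 and 19.0 CPM. Cdc20 lost its call with technical repeat 1 alone, where its log2 fold change was -0.28 (adjusted p = 0.80).

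Of 20 damage response genes 10 were lower, 1 was higher and 9 did not pass. Those that fell included the nuclease Exo1 and the histone H2afx (58.3, 59.0 and 55.4 CPM to 30.1, 30.6 and 24.2 CPM). With technical repeat 1 alone the count of lower members was 5. Gadd45g, a stress sensor that slows the cycle, was the 1 member that rose, from 33.7, 34.2 and 31.3 CPM to 73.3, 67.5 and 86.0 CPM. Of 21 genes of the p53 pathway, Trp53 and its targets, 2 were higher (9.52%, against 9.43% of all genes) and 3 lower (14.3%, against 8.62%). Among genes with a mean of at least 10 CPM 13.05% were higher and 14.65% lower, and neither share of the list exceeded these. With the replicate block 4 were higher. Trp53 itself did not pass, at 245, 264 and 250 CPM against 315, 274 and 254 CPM. Besides Cdkn1a, the receptor Eda2r rose 2.66-fold, from 135, 105 and 159 CPM to 371, 316 and 372 CPM. Perp, Pmaip1 and Plk2 fell, Perp from 542, 445 and 410 CPM to 278, 287 and 276 CPM, and Plk2 with its call lost without 6S-A Ngn3 replicate 1 or GFP only replicate 3 (adjusted p = 0.085 and 0.063). Mdm2, Bax, Sesn2, Phlda3 and Zmat3 all had log2 fold changes between -0.02 and 0.20 and none of them passed.

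Of 20 apoptosis regulators 3 were higher (15%) and 1 lower (5%), against 9.43% and 8.62% of all genes. Among genes with a mean of at least 10 CPM 13.05% were higher and 14.65% lower, so the higher share of the list was close to theirs. The 3 higher members were all proapoptotic BH3-only genes of the Bcl2 family. Bik rose from 11.8, 8.97 and 7.60 CPM to 56.7, 47.2 and 47.2 CPM (log2 fold change 2.41 ± 0.19, adjusted p = 1.2e-06). Bcl2l11, which encodes Bim, rose from 61.3, 66.0 and 72.2 CPM to 160, 175 and 167 CPM, and Bmf 2.10-fold to at most 22.6 CPM. The inhibitor of caspases Xiap fell slightly, from 106, 105 and 131 CPM to 87.7, 86.9 and 86.7 CPM, with its call lost in 4 of the 6 fits that left out 1 replicate (adjusted p of at most 0.084). Bcl2, Bcl2l1 and Mcl1, which hold these proteins in check, had log2 fold changes of -0.17, -0.30 and -0.23 and did not pass. With DESeq2 or the replicate block 6 of the 20 were higher, and the block called 3 lower, among them Bcl2l1 (log2 fold change -0.29, adjusted p = 0.013) and Mcl1 (-0.23, adjusted p = 0.025).

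The unfolded protein response, by which a cell adjusts its endoplasmic reticulum to the load of secreted protein, changed in some of its sensors and disposal genes. Of 26 tested genes 7 were higher and 2 lower (median 0.16). The sensors Eif2ak3 (PERK) and Ern1 (IRE1) rose, Eif2ak3 from 60.9, 67.9 and 70.5 CPM to 142, 133 and 152 CPM and Ern1 from 31.6, 29.5 and 41.6 CPM to 54.3, 52.3 and 63.1 CPM. The third sensor, Atf6, had a log2 fold change of 0.03 and did not pass. Sel1l, a part of the complex that exports misfolded proteins for degradation, rose from 104, 92.5 and 109 CPM to 253, 251 and 404 CPM, and Herpud1, of the same complex, from 120, 135 and 172 CPM to 229, 228 and 300 CPM. Syvn1, the ligase of that complex, and Edem1, which delivers misfolded glycoproteins for disposal, had log2 fold changes of 0.25 and 0.20 and did not pass. The calcium-binding chaperone Calr rose 1.51-fold. Hspa5, which encodes the chaperone BiP and is the usual readout of the response, was at 755, 669 and 772 CPM against 720, 716 and 806 CPM (log2 fold change -0.03 ± 0.11). Atf3 and Xbp1 fell, Atf3 from 1082, 1172 and 1652 CPM to 445, 469 and 709 CPM and Xbp1 from 376, 589 and 430 CPM to 319, 303 and 318 CPM. Atf3 lost its call without the filter on low counts (adjusted p = 0.058). The remaining 2 higher members were Dnajc3, which lost its call without 6S-A Ngn3 replicate 1 (adjusted p = 0.062), and Trib3, which lost its call in all 6 fits that left out 1 replicate (adjusted p of at most 0.11). With technical repeat 1 alone, 2 members were called higher.

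Genes of the amino acid response, in which ATF4 is the main factor, did not rise together. Of 22 genes 2 were higher and 6 lower, and Atf4 itself was at 365, 379 and 381 CPM against 328, 377 and 405 CPM. The stress cytokine Gdf15 fell from 52.2, 46.8 and 77.9 CPM to 7.24, 12.5 and 23.9 CPM. Slc7a11, the cystine importer, fell from 18.9, 21.0 and 40.9 CPM to 3.52, 5.10 and 6.55 CPM, and Phgdh, the first enzyme of serine synthesis, from 66.7, 57.7 and 63.8 CPM to 19.9, 28.9 and 30.4 CPM. The amino acid response genes Asns, Sesn2 and Ddit4 had log2 fold changes of -0.01, -0.02 and -0.13 and did not pass. The 2 that rose were Aldh1l2, with its call lost without 6S-A Ngn3 replicate 3 (adjusted p = 0.054), and Vldlr, a lipoprotein receptor, from 16.4, 14.7 and 20.9 CPM to 42.1, 52.9 and 66.2 CPM.

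Several stress-inducible heat shock genes fell. Of 16 tested genes 6 were lower and 0 higher in edgeR (0 higher at an unadjusted p under 0.05 and in DESeq2). Hspa1a was at 2.40, 3.07 and 4.84 CPM against 15.1, 15.02 and 21.1 CPM, Hspb1 (Hsp27) at 6.995, 8.51 and 6.21 CPM against 24.5, 22.5 and 28.4 CPM, and the small chaperone Cryab at 20.4, 29.9 and 29.8 CPM against 87.4, 71.2 and 55.5 CPM. Hspa1b is a near-identical copy of Hspa1a, and how reads that match both were handled is not shown by the table. It lost its call in 5 of the 6 fits that left out 1 replicate (adjusted p of at most 0.18). The constitutive Hsp90ab1 was at 2816, 2914 and 2801 CPM against 2746, 2696 and 2644 CPM. With technical repeat 1 alone, 3 members were called lower.

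Of 30 genes of oxidative stress and glutathione 13 were lower and 3 higher, the latter being Gpx2, Cat and Srxn1. Nfe2l2, which encodes the master factor Nrf2, fell from 607, 521 and 528 CPM to 369, 330 and 371 CPM. The glutathione transferases Gsta4 and Gstm1 fell, Gsta4 from 183, 335 and 225 CPM to 32.8, 52.8 and 48.9 CPM, as did Gsr, which recycles glutathione (178, 172 and 162 CPM to 75.0, 98.4 and 72.5 CPM). The malic enzyme Me1, which supplies NADPH, fell to 53.5, 53.9 and 48.5 CPM against 109, 131 and 109 CPM, and Tkt, the transketolase of the pentose phosphate pathway, to 210, 242 and 182 CPM against 423, 476 and 372 CPM. The peroxidase Gpx2, a gene of gut epithelium, rose from 283, 475 and 252 CPM to 891, 818 and 1018 CPM, and catalase (Cat) from 119, 104 and 100.8 CPM to 268, 227 and 195 CPM. Hmox1, a classical Nrf2 target, was at 24.4, 35.0 and 30.02 CPM against 27.2, 27.2 and 21.0 CPM and did not pass. With technical repeat 1 alone, 7 members were called lower.

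**Figure D4:**
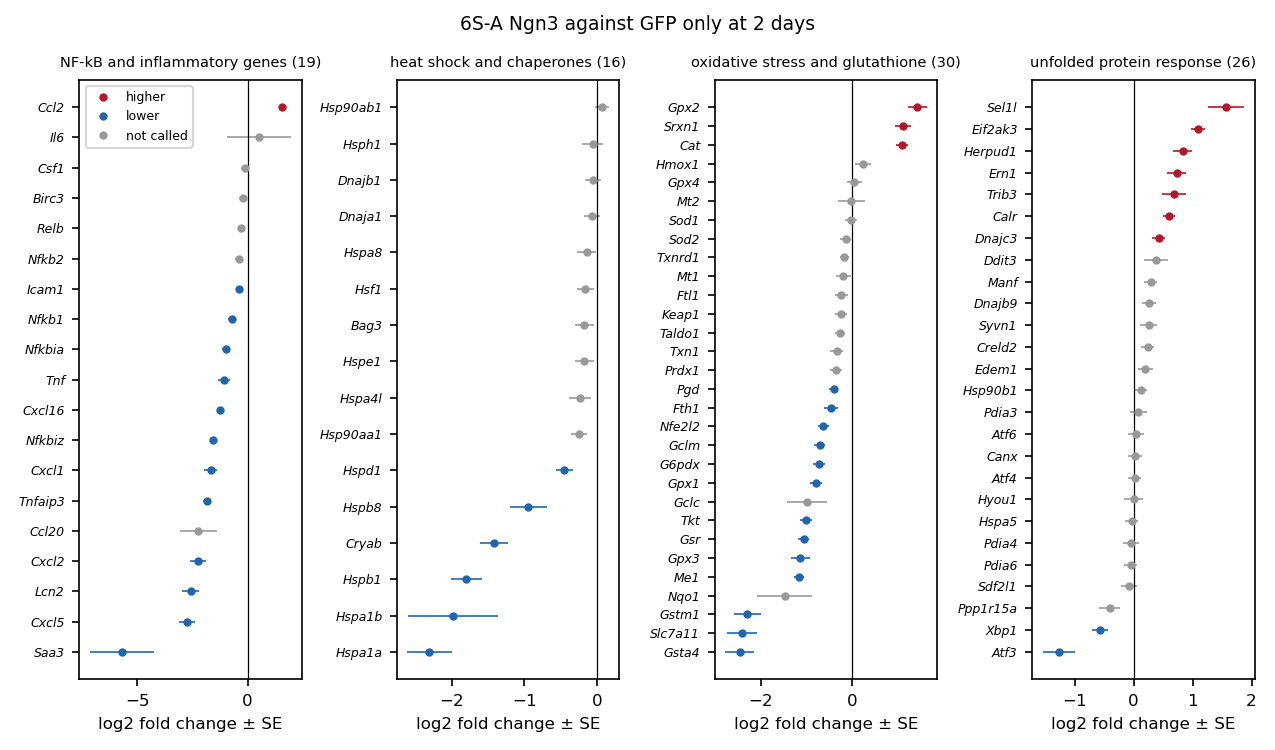
Log2 fold change of 6S-A Ngn3 against GFP only at 2 days with its standard error, for every tested member of 4 lists (blue, called lower; red, called higher; grey, not called), each panel with its own axis. Of the inflammatory genes 12 are lower and Ccl2 alone is higher, 6 of 16 heat shock genes are lower, 13 of 30 oxidative stress genes are lower and 3 higher, and the unfolded protein response is split, with Sel1l and Eif2ak3 highest.

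Most inflammatory genes fell. Of 19 targets and members of the NF-kB pathway 12 were lower and 1 was higher (median -1.07). Cxcl5, a chemokine that draws neutrophils, was at 337, 814 and 932 CPM against 4369, 4582 and 4989 CPM, 6.69-fold lower, and its relatives Cxcl1 and Cxcl2 fell from 551, 566 and 655 CPM to 139, 208 and 209 CPM and from 305, 275 and 441 CPM to 59.1, 91.5 and 63.4 CPM. Lcn2, an iron-trapping protein of inflamed epithelium, fell 6.00-fold, from 6582, 8379 and 5988 CPM to 673, 1749 and 1072 CPM. The pathway's own inhibitors fell as well, Tnfaip3 (A20) from 285, 245 and 342 CPM to 58.6, 95.1 and 88.1 CPM and Nfkbia from 881, 624 and 967 CPM to 362, 381 and 500 CPM. The groups did not overlap in these 6 genes, named from the members that fell (32.9% of all genes tested did not overlap), and in all 18 libraries with 6S-A Ngn3 Cxcl5 lay below the lowest GFP only library (58.7 to 1782 CPM against 2825 to 5687 CPM). Ccl2, which draws monocytes, went the other way, from 813, 571 and 849 CPM to 2189, 2080 and 2285 CPM. Tnf fell to 46.3, 63.6 and 90.4 CPM from 112, 112 and 196 CPM, with its call lost without 6S-A Ngn3 replicate 1 or 2 or GFP only replicate 3 (adjusted p of at most 0.071) and without the filter on low counts (0.11).

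Some genes of interferon response and antigen presentation rose. Of 22 interferon response genes 5 were higher and 1 lower. Rsad2, an antiviral enzyme, rose 73.5-fold, from 0.963, 0.284 and 0.951 CPM to 60.2, 37.5 and 63.9 CPM, and the RNA sensor Ifih1 from 16.2, 15.1 and 17.5 CPM to 61.0, 52.2 and 36.0 CPM. Isg15, another gene that interferon raises, did not pass, with levels at 2.59, 9.22 and 0.711 CPM against 3.08, 1.54 and 3.95 CPM, and Oasl1 fell. Of 12 antigen presentation genes 6 were higher and 0 lower in edgeR (0 lower at an unadjusted p under 0.05 and in DESeq2). The peptide transporter Tap2 rose from 10.3, 5.68 and 6.70 CPM to 25.9, 22.004 and 18.4 CPM, the immunoproteasome subunit Psmb8 from 8.51, 9.01 and 6.90 CPM to 28.2, 27.7 and 15.6 CPM and the nonclassical H2-T23 from 25.5, 26.6 and 28.6 CPM to 75.2, 59.1 and 74.1 CPM. The classical H2-K1 and the light chain B2m had log2 fold changes of 0.13 and 0.07 and did not pass. Ubd, a ubiquitin-like modifier, had 1 read with GFP only and 8.76, 4.23 and 6.17 CPM with 6S-A Ngn3, a ratio of 456 with an interval of 81.4 to 18060.

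Metabolic genes fell in a few pathways. Of 25 genes of cholesterol synthesis and uptake 16 were lower and 1 higher, with a median of -0.64. Hmgcs1, which makes the precursor of the pathway, fell from 141, 191 and 196 CPM to 71.4, 79.8 and 78.4 CPM. Insig1, which restrains the pathway, was the 1 that rose, from 51.5, 67.2 and 82.6 CPM to 123, 107 and 105 CPM. These changes were small, and with technical repeat 1 alone 2 members were called lower. CCAAT was present in 16 of the 17 cholesterol genes with a promoter in the table (94.1%). The 180 bases before the start of Hmgcs1 (chr13:119690171-119690350, plus strand) and Cyp51 (chr5:4104698-4104877, minus strand) are shown on GRCm38.p6 with CCAAT, or its complement ATTGG, in capitals.
Hmgcs1: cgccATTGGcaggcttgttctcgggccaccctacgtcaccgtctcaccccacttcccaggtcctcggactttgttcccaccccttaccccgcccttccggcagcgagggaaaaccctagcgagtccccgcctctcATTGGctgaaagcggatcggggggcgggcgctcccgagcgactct
Cyp51: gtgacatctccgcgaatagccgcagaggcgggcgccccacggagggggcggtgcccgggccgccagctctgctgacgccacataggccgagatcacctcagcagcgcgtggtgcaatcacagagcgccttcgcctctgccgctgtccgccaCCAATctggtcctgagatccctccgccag
Cyp51, a demethylase of the sterol ring, fell from 100, 155 and 150 CPM to 64.3, 88.7 and 81.8 CPM.

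Of 17 genes of fatty acid synthesis 8 were lower and 1 higher. Elovl6, which lengthens palmitate, fell from 18.7, 32.8 and 32.1 CPM to 3.96, 7.96 and 13.04 CPM, while Acly, which makes cytosolic acetyl-CoA, rose from 299, 299 and 281 CPM to 764, 559 and 649 CPM. Leaving out 6S-A Ngn3 replicate 2 or GFP only replicate 2 gave 5 lower members. Of 26 glycolysis and hypoxia genes 10 were lower and 3 higher. Car9, a carbonic anhydrase induced by hypoxia, fell from 256, 183 and 209 CPM to 78.4, 46.2 and 21.5 CPM, the glucose transporter Slc2a1 from 423, 274 and 321 CPM to 124, 103 and 91.2 CPM and lactate dehydrogenase Ldha from 789, 699 and 532 CPM to 363, 330 and 212 CPM. Ndrg1, also induced by hypoxia, went from 47.9, 34.4 and 37.2 CPM to 168, 153 and 181 CPM. Of 26 nuclear and 13 mitochondrial genes of the respiratory chain 0 were called in edgeR or in DESeq2, and 1 of each was lower at an unadjusted p under 0.05 and with the replicate block.

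Of 23 genes of the MYC family and ribosome assembly 9 were lower and 1 higher. Mycn fell from 43.9, 42.5 and 55.2 CPM to 12.2, 21.9 and 17.0 CPM and Myc from 176, 256 and 271 CPM to 57.6, 127 and 120 CPM, while Mycl rose 7.31-fold, from 27.3, 19.3 and 31.1 CPM to 184, 177 and 206 CPM (log2 fold change 2.87 ± 0.16, adjusted p = 6.9e-08). The call of Myc was lost without GFP only replicate 2 or 3 (adjusted p = 0.056 and 0.060) and without the filter on low counts (0.084). Among nucleolar genes Dkc1 fell from 78.1, 82.1 and 64.6 CPM to 39.6, 45.8 and 36.6 CPM and Ncl 1.47-fold. With the replicate block 16 of the ribosome list and 16 of the glycolysis list were lower, against 12.1% of all genes in that fit.

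Signalling genes moved in a way that differed by pathway. Of 24 immediate early and MAPK feedback genes 11 were lower and 2 higher. Junb fell from 744, 570 and 685 CPM to 323, 276 and 255 CPM, Fosl1 from 58.7, 39.2 and 76.5 CPM to 16.7, 16.8 and 22.3 CPM and the phosphatase Dusp1 from 1174, 1264 and 1339 CPM to 395, 497 and 561 CPM. Dusp6, a direct readout of ERK activity, was at 426, 477 and 494 CPM against 459, 468 and 585 CPM. Without 6S-A Ngn3 replicate 2 or GFP only replicate 3, 7 members were called lower. Of 16 genes of the YAP and TEAD pathway, which responds to cell tension and density, 8 were lower and 2 higher. The list holds the pathway's own factors as well as its targets. Among targets Ccn2 (Ctgf) fell from 572, 698 and 800 CPM to 136, 285 and 196 CPM, Ankrd1 from 584, 761 and 691 CPM to 129, 269 and 201 CPM and tissue factor F3 4.61-fold. The 2 that were higher were the DNA-binding partners Tead1 and Tead2, and Tead1 lost its call without 6S-A Ngn3 replicate 3 or GFP only replicate 1 or 2 (adjusted p of at most 0.062).

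Of 21 Wnt genes 6 were lower and 3 higher (10 lower with the replicate block and 3 with technical repeat 1 alone). The receptor Lgr5, a marker of organoid progenitors, fell from 31.8, 55.8 and 61.3 CPM to 17.0, 28.97 and 24.8 CPM (log2 fold change -1.07, but -0.26 at an adjusted p of 0.80 with technical repeat 1 alone) and the Wnt-induced ligase Rnf43 from 51.4, 76.8 and 87.7 CPM to 18.2, 25.8 and 27.9 CPM, while Axin2 did not pass (26.1, 40.5 and 60.9 CPM against 28.3, 42.5 and 76.1 CPM). The ligand Wnt9a rose 10.9-fold, from 17.5, 9.34 and 10.6 CPM to 157, 126 and 125 CPM. Of 21 TGF-beta and BMP genes 7 were higher and 5 lower. Bmp2 rose from 4.27, 3.04 and 4.40 CPM to 94.7, 94.6 and 98.1 CPM (log2 fold change 4.62 ± 0.19, adjusted p = 6.2e-09), and Bambi, a decoy receptor, from 6.12, 6.90 and 4.85 CPM to 116, 113 and 205 CPM. The activin subunits diverged, with Inhbb up from 21.4, 29.8 and 26.4 CPM to 75.3, 74.5 and 86.3 CPM and Inhba down from 36.7, 21.4 and 44.3 CPM to 8.76, 9.38 and 14.4 CPM. The activin antagonist Fst fell 8.02-fold, from 212, 178 and 191 CPM to 10.3, 47.7 and 14.5 CPM.

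Ductal genes fell in part. Of 22 ductal genes 12 were lower and 2 higher. Krt19 fell 5.96-fold, from 693, 620 and 720 CPM to 87.7, 114 and 139 CPM, and carbonic anhydrase Car2 from 168, 276 and 241 CPM to 19.7, 61.8 and 35.6 CPM. Sox9, the ductal factor that lies upstream of Neurog3 in development, was at 370, 339 and 417 CPM against 440, 324 and 416 CPM (log2 fold change -0.07 ± 0.13, adjusted p = 0.80), and Krt7 at 1270, 1230 and 1377 CPM against 1541, 1405 and 1254 CPM. Prom1, a surface marker of ducts, rose 2.98-fold to 1938, 1509 and 1768 CPM and the tetraspanin Tspan8 rose 1.67-fold.

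Genes of adhesion and of the epithelial to mesenchymal transition moved in both directions. Of 18 genes 7 were higher and 5 lower. N-cadherin (Cdh2) rose 9.91-fold, from 22.8, 18.1 and 19.2 CPM to 225, 177 and 194 CPM, vimentin (Vim) from 7.28, 14.0 and 12.1 CPM to 81.8, 53.2 and 76.9 CPM and the repressors Snai2 and Zeb1 to 12.1, 12.8 and 23.7 CPM (Snai2) and 64.6, 49.9 and 50.6 CPM (Zeb1), from at most 2.90 and 12.5 CPM. E-cadherin (Cdh1) was at 1388, 956 and 1088 CPM against 923, 565 and 822 CPM and did not pass (adjusted p = 0.060), although DESeq2, the fit of these 2 groups alone and the replicate block called it higher (adjusted p = 0.025, 0.048 and 0.00018). The tight junction claudins Cldn3 and Cldn7 fell, Cldn7 from 549, 493 and 497 CPM to 187, 223 and 205 CPM, and so did Cdh6 and the epithelial factor Grhl2. Of 21 integrin and matrix genes 8 were lower, among them Itga3 (793, 530 and 751 CPM to 330, 331 and 346 CPM) and Lama3, and 4 were higher, led by the collagen Col18a1 (237, 160 and 221 CPM to 2848, 2143 and 1978 CPM, 11.3-fold). Of 19 autophagy and lysosome genes 4 were higher, Ctsl, Hexa, Sqstm1 and Map1lc3b, and 0 lower in edgeR (1 lower at an unadjusted p under 0.05 and in DESeq2). The protease cathepsin L (Ctsl) rose 2.48-fold to 1813, 1452 and 1880 CPM, and Tfeb, the factor that drives lysosome genes, was at 2.69, 4.01 and 3.56 CPM against 6.05, 4.51 and 6.75 CPM and did not pass, although DESeq2 called it lower (adjusted p = 0.034). Sqstm1 lost its call without GFP only replicate 2 (adjusted p = 0.0503), and with the replicate block 8 of the 19 were higher.

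Among the 15 largest rises were Gpr37, a receptor of neural cells, from at most 0.244 CPM to 333, 205 and 208 CPM, the long noncoding RNA Miat from at most 0.284 CPM to 207, 172 and 225 CPM, the neurexin ligand Nxph1 from at most 0.0812 CPM to 81.2, 39.1 and 61.7 CPM and the potassium channel Kcnma1, which had 1 read with GFP only and 24.1, 18.1 and 30.1 CPM with 6S-A Ngn3, a ratio of 1720 with an interval of 308 to 67990. Among the 15 largest falls was that of lactotransferrin (Ltf), a secreted iron-binding protein, which fell from 181, 405 and 284 CPM to 6.80, 28.3 and 12.0 CPM, with its call lost without 6S-A Ngn3 replicate 3 (adjusted p = 0.068). The chitinase-like Chil1 fell from 16.5, 39.2 and 17.4 CPM to 0.538, 1.04 and 3.18 CPM. The potassium channel subunit Kcne3 fell 12.5-fold, from 71.7, 156 and 105 CPM to 4.40, 13.4 and 8.87 CPM, and the gap junction protein Gjb1 from 9.20, 26.8 and 16.0 CPM to 0.685, 1.48 and 0.711 CPM. Ptgs2, which encodes the prostaglandin synthase COX-2, fell 14.4-fold, with its call lost without 6S-A Ngn3 replicate 3 and in the fit of these 2 groups alone (adjusted p = 0.065 and 0.060). By change in CPM, which is not scaled to gene length, the mesothelin gene Msln rose from 425, 313 and 288 CPM to 2704, 2127 and 2389 CPM, and clusterin (Clu) fell from 31498, 28303 and 24660 CPM to 16758, 18521 and 17248 CPM.

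**Figure D5:**
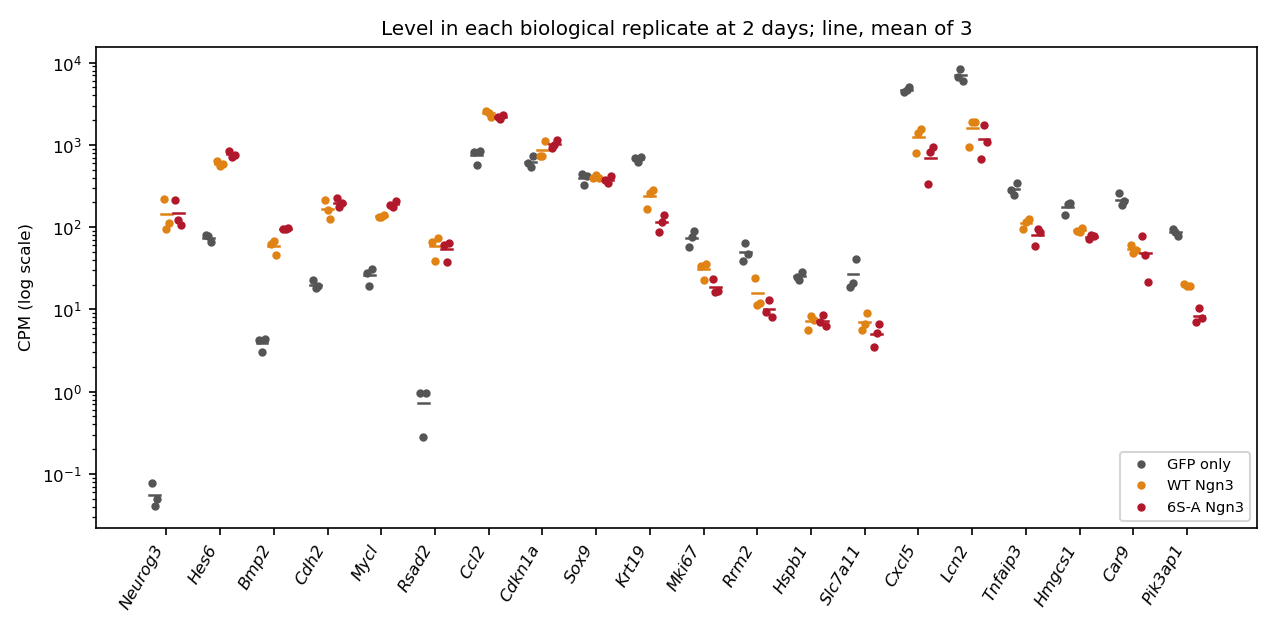
CPM on a log axis of 20 genes in each of the 3 biological replicates of GFP only (grey), WT Ngn3 (orange) and 6S-A Ngn3 (red) at 2 days, with a line at the mean. The 6S-A Ngn3 replicates lie apart from GFP only in all genes but Sox9, and WT Ngn3 lies on the same side of GFP only as 6S-A Ngn3.

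WT Ngn3 against the same GFP only samples gave 2810 calls (11.8%), 6.56% of genes higher and 5.23% lower, or 4291 with the replicate block (18%, 9.47% higher and 8.53% lower). The comparisons share their controls, so their values are set side by side without a count of overlap. The log2 fold change was -1.28 with WT and -1.97 with 6S-A Ngn3 for Mki67, -1.90 and -2.74 for Cxcl5, -0.95 and -1.20 for Hmgcs1, 0.46 and 0.70 for Cdkn1a, 6.34 and 6.20 for Rsad2 and 1.22 and 1.10 for Eif2ak3. Mitosis genes were lower in 31 of 40 with WT and in 36 of 40 with 6S-A Ngn3. Tested directly, 6S-A differed from WT Ngn3 in 3 of 23844 genes (0.0126%), 2 higher (0.00839%) and 1 lower (0.00419%). With the replicate block it differed in 147 (0.617%), 50 higher (0.21%) and 97 lower (0.407%). Samples with the same replicate number deviated together, and the blocked fit called 26 of the 669 tested list members, 5 higher and 21 lower with 6S-A than with WT Ngn3.

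The 5 higher list members in the blocked fit were Cbfa2t3, Pcsk1, Hes6, Bmp2 and Tgfbr1, with log2 differences of 0.62 ± 0.11, 1.00 ± 0.17, 0.39 ± 0.08, 0.71 ± 0.14 and 0.51 ± 0.08. Hes6 was at 836, 719 and 757 CPM with 6S-A and 638, 546 and 584 CPM with WT Ngn3, without overlap. Among the 21 lower were the ductal genes Krt19 (-1.05 ± 0.14), Slc4a4, Cldn4, Muc1, Bicc1 and Krt18, the YAP targets Ankrd1 (-0.79 ± 0.11) and F3, and the stress and inflammatory genes Hspa1a (-1.05 ± 0.20), Dusp1 (-0.51 ± 0.08), Klf6, Nfkbiz (-0.60 ± 0.09), Cxcl16, Tnf and Gadd45b. Krt19 was at 87.7, 114 and 139 CPM with 6S-A and 166, 260 and 281 CPM with WT Ngn3. No mitosis, replication, cholesterol, unfolded protein response, apoptosis or endocrine hormone gene of the lists was called between 6S-A and WT Ngn3 by either fit. For the uneven hormone genes this does not show equal levels. Against GFP only, 4 of 5 were higher with 6S-A Ngn3 and 1 with WT Ngn3 (median log2 fold change 9.09 and 4.84). With WT Ngn3 Sst reached 82.1 and 107 CPM in repeats 2 and 3 of replicate 3 and at most 1.165 CPM in the other libraries, while Ghrl ranged from 0.197 to 541 CPM.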

How the data were processed

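Smart-seq2 libraries of 50 sorted cells were analysed from the deposited table of raw read counts per gene, for which the authors aligned reads with GSNAP to mm10 and assigned them to Ensembl genes (release 81) with HTSeq (0.5.3p3). Of all reads counted there, 22.9% were not aligned, 15.6% fell in no gene and 7.71% were ambiguous, and these and the spike-ins stayed out of library sizes and tests. All 54 libraries of day 2 passed the study's limits on spike-in share, gene reads and detected genes. Technical repeats were summed per biological replicate, and genes seen in at least 5 libraries with a variance above 0 were kept (23844 of 46078).

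The 9 sums of the 3 day-2 groups were fitted together in edgeR 4.0.16 (R 4.3.3, TMM factors, robust quasi-likelihood test, two-sided, with p-values adjusted over all genes by Benjamini-Hochberg and a threshold of 0.05). CPM are counts scaled to the gene reads of each sum with TMM factors and are not scaled to gene length, so levels of different genes cannot be compared. Reads carry no molecular identifiers, so counting intervals (95%, exact) and the floor of 3 counts cover counting error only.

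Replicate numbers come from the labels. Deviations from the group mean correlated at 0.107 to 0.518 in 9 pairs of samples with the same number. In 18 pairs with different numbers they correlated at -0.479 to 0.002 (11494 genes), so the numbers were taken to pair the samples. Calls described come from the fit without this pairing unless stated. A fit with the number as a block is given for part of the results. Alternatives were DESeq2 1.42.0, DESeq2 and scran 1.30.0 size factors, other count filters, 2 groups only, other sets of technical repeats, the block, and leaving out each replicate. The fits were tested on simulated data, in which the share of calls that were false was above the threshold.

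Members and gene lists were chosen with earlier results of these data known. Genes named are Neurog3, any member of the lists beside the list's counts, the 15 largest and 15 smallest log2 fold changes among called genes without overlap and with a mean of at least 10 CPM in the higher group (no predicted genes), the 10 largest and 10 smallest differences in mean CPM, and genes called between 6S-A and WT Ngn3. Some members counted in the lists are not reported here by name.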

Additional observations from a re-analysis of the deposited data

Results flagged for a closer look

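At 2 days 3 genes differed between 6S-A and WT Ngn3 in edgeR's fit of all 9 samples, each at an adjusted p of 0.016. Pik3ap1, an adaptor of phosphoinositide 3-kinase, was at 7.04, 10.3 and 7.83 CPM with 6S-A, 20.2, 19.2 and 19.4 CPM with WT Ngn3 and 94.995, 87.8 and 77.8 CPM with GFP only, a log2 difference between 6S-A and WT Ngn3 of -1.23 ± 0.16. Sorcs2, a sorting receptor of neurons, was at 46.2, 43.3 and 54.9 CPM with 6S-A and 18.4, 23.3 and 17.3 CPM with WT Ngn3 (1.29 ± 0.16). Zfp185, a cytoskeletal protein, was at 127, 127 and 132 CPM with 6S-A and 69.9, 59.8 and 74.2 CPM with WT Ngn3 (0.92 ± 0.12). In each of the 3 genes WT Ngn3 lay between GFP only and 6S-A Ngn3. All 3 lost their calls without 6S-A Ngn3 replicate 1 or 3 or WT Ngn3 replicate 1 or 2, where 0 genes were called. Sorcs2 also lost it without 6S-A Ngn3 replicate 2 or WT Ngn3 replicate 3, Zfp185 without 6S-A Ngn3 replicate 2 and with technical repeat 1 only, and Pik3ap1 in the fit of those 2 groups alone. With the replicate block they had log2 differences of -1.24, 1.29 and 0.92.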

How the results depend on the processing

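The count of genes changed by 6S-A Ngn3 was within 1.5 times of 4305 in every alternative except with only technical repeat 1 of each replicate, where 1677 genes were called, 863 higher and 814 lower. The replicate block gave 5912 (24.8%), with 12.7% of genes higher and 12.1% lower. Between 6S-A and WT Ngn3 the count of 3 depended on the processing. It was 101 in DESeq2 (40 higher, 61 lower), 100 without a filter on low counts (34 and 66), 63 with technical repeat 1 only (18 and 45) and 147 with the replicate block (50 and 97). The fit of those 2 groups alone gave 4 higher and 0 lower. Leaving out 1 replicate gave 0 to 5 genes, 0 to 3 higher and 0 to 2 lower. WT Ngn3 against GFP only gave 1216 calls with technical repeat 1 only (733 and 483) and 4291 with the replicate block (2034 lower), and leaving out 1 replicate gave 821 (without WT Ngn3 replicate 2) to 1076 lower, against 1247. The causes were not tested. Among lists whose alternatives are not given above, technical repeat 1 only gave 2 higher hormones, 6 higher Notch genes, 1 higher and 1 lower G1 regulator, 1 lower p53 gene, 0 lower apoptosis regulators, 1 higher amino acid response gene, 1 higher glycolysis gene, 2 lower fatty acid genes, 5 lower ribosome assembly genes, 3 higher interferon genes, 1 higher MAPK gene, 0 higher YAP and TEAD genes, 2 higher and 5 lower integrin and matrix genes and 2 higher autophagy genes. DESeq2 and the replicate block each called 4 amino acid response genes higher and 2 damage response genes higher. The block called 17 oxidative stress, 16 MAPK, 20 cholesterol, 15 ductal, 13 damage response and 8 amino acid response genes lower. It called 8 antigen presentation genes higher, and counts of some other lists moved as well. Of 173 named genes called between 6S-A Ngn3 and GFP only, 128 kept the call in every alternative run. Without a filter on low counts calls were lost for Atf3, Cck, Hspa1b, Myc and Tnf (adjusted p = 0.058, 0.15, 0.15, 0.084 and 0.11), and in the fit of the 2 groups alone for Cck, Chgb, Notch2 and Ptgs2 (0.070, 0.055, 0.067 and 0.060). Notch2 also lost its call with scran size factors (0.053). The setting with most lost calls was technical repeat 1 only, with 37. Among these the log2 fold change was 4.83 for Cck, -0.28 for Cdc20, 4.74 for Dcx, 0.47 for Ern1, -1.56 for Gstm1, -0.26 for Lgr5, 0.60 for Notch1, 2.94 for Pax4, 0.27 for Srxn1, 0.34 for Tead1, 0.35 for Tead2 and 0.78 for Vldlr, each over 1.5 times from its value with all repeats. The others that lost their call there were Aldh1l2, Bmf, Calr, Cdk6, Cdkn1b, Cdkn2c, Clu, Cyp51, Dnajc3, Herpud1, Hspa1b, Jag2, Map1lc3b, Ncl, Nfe2l2, Nkx6-1, Pam, Perp, Pmaip1, Rb1, Sqstm1, Trib3, Xbp1, Xiap and, with a change of direction, Notch2. Under that setting the log2 fold change took the other sign at -0.20 for Atf4, 0.064 for Dusp6, -0.071 for Edem1, 0.0046 for Hes1, -0.055 for Notch2, 0.34 for Pttg1, 0.14 for Sesn2, 0.037 for Sox9, 0.040 for Trp53 and 0.52 for Ube2c. Without technical repeat 3 it was 0.010 for Asns. Genes without a call that changed sign when 1 replicate was left out ranged from -0.20 to 0.083 for Asns, -0.069 to 0.066 for Atf4, -0.061 to 0.17 for Atf6, -0.55 to 0.24 for Axin2, -0.033 to 0.15 for B2m, -0.056 to 0.10 for Bax, -0.24 to 0.10 for Ccnd1 and -0.42 to 0.21 for Ddit4. The others ranged from -0.26 to 0.13 for Hes1, -0.071 to 0.030 for Hspa5, -0.79 to 1.05 for Isg15, -0.019 to 0.20 for Mdm2, -0.0055 to 0.14 for Phlda3, -0.11 to 0.051 for Sesn2, -0.20 to 0.014 for Sox9 and -0.16 to 0.042 for Ube2c.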
